A study of Mus musculus with 8 samples.

Results

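Interferons are signalling proteins that cells release on infection or damage. Type I interferons act through a receptor made of Ifnar1 and Ifnar2, and interferon gamma through Ifngr1 and Ifngr2. Both routes activate Stat and Irf transcription factors, which bind the interferon-stimulated response element (ISRE) or the gamma-activated site (GAS) in promoters and switch on antiviral genes, interferon-inducible GTPases, chemokines and the machinery that cuts peptides and loads them on class I molecules. Hepatocytes carry these receptors, and the pathway is known in liver for its part in the defence against viruses and for the class I display that T cells read.

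The 42 genes of this pathway examined here were taken from a list of names covering receptors, transcription factors, RNA sensors, antiviral effectors, GTPases, chemokines and antigen presentation. Of the 42, 41 had a probe set with 1 gene symbol on the array, among 18193 genes in all. The probe set for Isg15 carries several symbols, so no value is given for that gene. Where a gene had several probe sets, the one with the highest mean over the 8 arrays stood for it. Of the 41 measured genes, 29 passed a filter on low signal and were tested, and 12 did not. The filter used the mean over all 8 arrays.

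The cells were Dlk-positive hepatoblasts, the fetal liver precursors of hepatocytes and bile duct cells, from mouse livers at embryonic day 14.5. All cells, controls included, came from Ink4a-Arf-null embryos, so both groups lack the best known Bmi1 target locus. They were sorted with magnetic beads, transduced with EGFP (4 arrays, Control) or Bmi1 (4 arrays, Bmi1, the Polycomb repressive complex 1 component), and cultured on collagen with 50 ng/ml HGF plus 20 ng/ml EGF. Transduced cells were purified by flow cytometry on culture day 28, and each group has replicates numbered 1 to 4 from 4 independent experiments. No group was given an interferon, an infection or another immune stimulus in the labels. The sources used here do not name the vector, its promoter or the number of animals behind each culture.

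Bmi1 itself read 802, 395, 568 and 306 on Control arrays 1 to 4 and 318, 273, 328 and 197 on Bmi1 arrays 1 to 4, in signal units. It was lower on the array labelled Bmi1 in 4 of 4 pairs, on both of its probe sets, and the sources used here do not place its probes relative to the introduced sequence. Every direction in this text follows the labels, as Bmi1 minus Control. Arrays with the same replicate number resembled each other, and replicates 1 and 2 stood apart from replicates 3 and 4 in both groups, with the BioC hybridisation control at 198 to 274 on the former and 97.0 to 119 on the latter. All 9 hepatoblast markers were above background on all 8 arrays. Of 10 measured lymphocyte markers, 0 were above background on all 8 arrays, and the pan-leukocyte gene Ptprc read 0.579 to 7.87. Summed signal of 12 macrophage markers ran from 587 to 2826 on Control arrays and from 684 to 2492 on Bmi1 arrays, of which Cd14 made up a large part. Summed signal of 9 fibroblast and stellate markers ran from 1847 to 11560 on Control arrays, with the top value on Control 1, and from 1198 to 4937 on Bmi1 arrays. With the replicate block, 2 of 9 tested fibroblast and stellate markers were called, Acta2 lower on the Bmi1 arrays (-1.11) and Reln higher (1.55). The fibroblast and stellate markers other than Reln were all lower by sign. Of 4 tested mesothelial markers 1 was called, Msln, lower (-1.25). That model called 1.36% of all tested genes higher and 1.95% lower. Without the block, 0 markers of either list were called, where 0.11% of all tested genes were called higher and 0.055% lower. The mesothelial gene Wt1, not called, was lower without overlap between groups (-0.89), as were 2.91% of all tested genes. The part of these cell types in the values below was not tested.

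The promoters of these genes were searched for the ISRE and GAS letters, and no binding was measured. RefSeq gives a window from 250 bases before to 50 bases after the start site (mouse build GRCm38.p6) for 34 of the 42 genes. The promoters of Iigp1, Usp18, Mx1, Mx2, Oas2, Tap2, Cd74 and Ciita were not analysed here. The ISRE core was searched as GAAANNGAAA, which is TTTCNNTTTC on the other strand, and the GAS as TTCNNNGAA, which reads the same on both strands. A match to the ISRE core was present for 16 of 34 genes (47.1%), against 3.99% of 27025 genes with a window. A match to the GAS letters was present for 11 of 34 (32.4%), against 9.55%. The genes were listed because they belong to this pathway, so these shares describe the list and are not a test. A GAS match can overlap an ISRE match, as it does in Bst2.

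The stretches below are the part of the promoter that holds the matches, for genes whose arrays are described in detail or that stand for a role. They are written 5′ to 3′ on the gene's strand, and capitals mark bases inside a match. Igtp is a GTPase gene with a GAS and an ISRE match together, 45 and 34 bases before the start site (chr11:58199491-58199550, plus strand). Irgm1, a second GTPase gene, has overlapping ISRE matches from 30 and 24 bases before the start (chr11:48871421-48871480, minus strand). Bst2 is an antiviral gene (chr8:71537568-71537627, minus strand) and Rsad2 another (chr12:26456538-26456597, minus strand). Cxcl10 is a chemokine gene (chr5:92349068-92349127, minus strand), and B2m encodes the light chain of class I (chr2:122147523-122147582, plus strand).
Igtp: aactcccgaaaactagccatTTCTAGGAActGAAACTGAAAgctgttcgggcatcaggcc
Irgm1: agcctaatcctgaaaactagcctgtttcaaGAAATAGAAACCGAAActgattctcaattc
Bst2: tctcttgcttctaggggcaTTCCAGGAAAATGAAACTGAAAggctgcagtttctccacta
Rsad2: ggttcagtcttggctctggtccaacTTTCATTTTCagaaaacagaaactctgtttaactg
Cxcl10: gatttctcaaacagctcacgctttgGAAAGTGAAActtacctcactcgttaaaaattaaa
B2m: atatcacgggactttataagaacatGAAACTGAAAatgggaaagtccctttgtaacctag

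The next stretches have GAS matches and no ISRE match. Irf1 (chr11:53769898-53769957, plus strand) and Irf8 (chr8:120736170-120736229, plus strand) encode transcription factors, and Irf8 has a pair of GAS matches. Psmb8 (chr17:34198072-34198131, plus strand) encodes an immunoproteasome subunit.
Irf1: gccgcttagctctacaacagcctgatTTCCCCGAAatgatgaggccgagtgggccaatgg
Irf8: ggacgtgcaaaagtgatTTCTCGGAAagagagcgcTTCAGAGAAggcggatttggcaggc
Psmb8: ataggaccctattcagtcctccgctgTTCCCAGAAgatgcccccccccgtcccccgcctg

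Psmb9 and Tap1 lie head to head on chromosome 17, with start sites 226 bases apart. The interval between them is shown because both genes start from it and both are measured here (chr17:34187331-34187555, plus strand). It holds no match to these letters, which says only that these letters are not in it.
Psmb9 to Tap1: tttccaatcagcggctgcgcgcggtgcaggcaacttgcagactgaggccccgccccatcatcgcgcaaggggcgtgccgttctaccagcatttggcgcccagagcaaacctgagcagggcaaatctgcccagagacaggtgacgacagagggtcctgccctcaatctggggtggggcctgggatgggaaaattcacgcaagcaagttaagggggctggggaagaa

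The group comparison asked whether the arrays labelled Bmi1 differed from Control in these genes. No tested member passed the limma test at an adjusted p of 0.05 (0 of 29), and 2 of 29 (6.90%) had an unadjusted p under 0.05, against 7.81% of all 10916 tested genes. The smallest adjusted p among the members was 0.253, for Iigp1. Over all tested genes the same fit called 12 higher (0.11%) and 6 lower (0.055%), so few calls were made anywhere. With the replicate number as a block, 0 of 29 members passed as well, and the smallest adjusted p was 0.107. That model had 6 of 29 members (20.7%) at an unadjusted p under 0.05, against 18% of all genes, and it called 1.36% of all genes higher and 1.95% lower. The members' shares lay near those of all genes in both fits. A p that misses the threshold does not show that the groups are alike.

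The intervals say how large a difference these arrays leave room for in the fit without the replicate block, which sets the pairing aside. With the block some standard errors were smaller and some were not. That of Usp18 was 0.18 in place of 0.48, and that of Iigp1 0.37 in place of 0.36. For 18 of 29 members the 95% interval lay within 2-fold either way. For 21 of 29 the difference was under 0.5 on the log2 scale, and 1, Iigp1, differed by 2-fold or more. The median standard error was 0.28 for the members and 0.24 for all tested genes. By sign, 20 members were lower and 9 higher on the Bmi1 arrays, with a median difference of -0.15, against -0.03 for all tested genes, of which 54.1% were lower. This split moved with the scaling: centred on all probe sets, 15 members were lower and 14 higher, with a median of -0.02, while the median of all genes was 0.11.

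**Figure D1:**
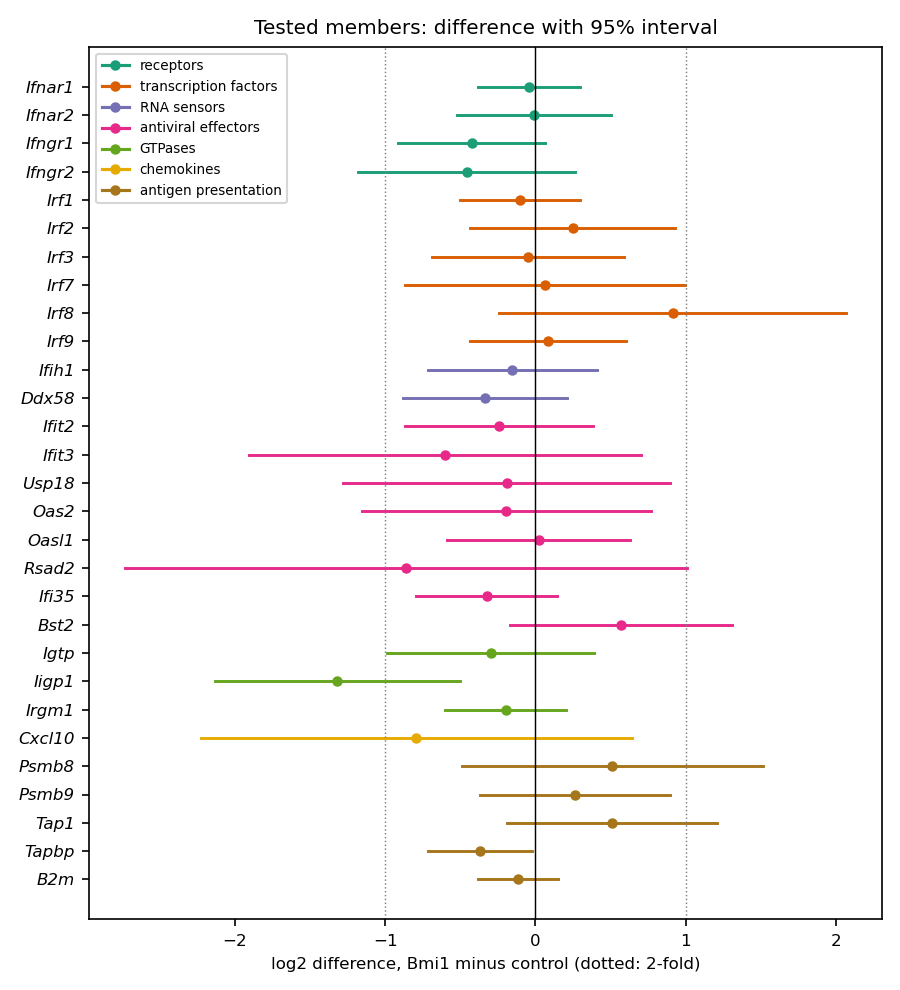
Log2 difference, Bmi1 minus Control, for each of the 29 tested members (points) with its 95% interval (lines), coloured by role. The intervals are from limma without the replicate block, and dotted lines mark 2-fold. The intervals of 27 members cross 0, and those of Iigp1 and Tapbp do not, before adjustment for the number of genes tested.

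**Figure D2:**
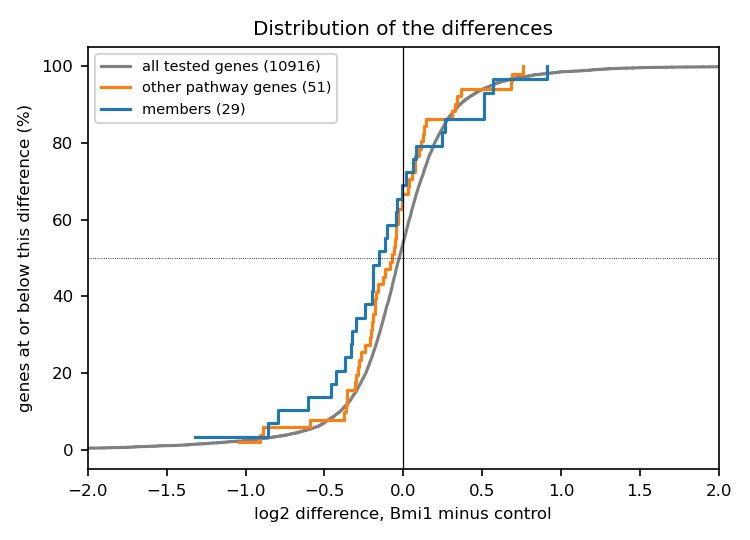
Cumulative share of genes (vertical axis, percent) at or below each log2 difference (horizontal axis, Bmi1 minus Control) for the 29 tested members, 51 other tested genes of the pathway and all 10916 tested genes. The members' curve lies left of that of all genes through its middle, with medians of -0.15 and -0.03.

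Agreement across the 4 pairs was read beside the same count over all genes. Bmi1 was higher in 4 of 4 pairs for 2 members (6.90%), Irf8 and Bst2, against 11.4% of all genes. It was lower in 4 of 4 pairs for 4 members (13.8%), Ddx58, Ifi35, Igtp and Iigp1, against 15.8%. Non-overlapping groups were found for 0 members with Bmi1 higher, against 2.42% of all genes, and for 1 member, Iigp1, with Bmi1 lower, against 2.91%. These shares were near or below those of all genes.

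The 4 receptor chains were all tested, and each was lower by sign, from -0.46 to -0.01 on the log2 scale, though 2 were higher when arrays were centred on all probe sets. Ifngr1, the ligand-binding chain of the interferon gamma receptor, read 346, 419, 708 and 554 on Control arrays 1 to 4 and 433, 424, 332 and 350 on Bmi1 arrays 1 to 4. Control 3 and 4 were the high arrays, while Control 1 lay among the Bmi1 arrays, so the groups overlap. The log2 difference was -0.42 (SE 0.22, limma adjusted p = 0.752).

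That difference lay in replicates 3 and 4. Within replicates 1 and 2 it was 0.08, and within replicates 3 and 4 it was -0.93. The interaction of group with this split of replicates had an unadjusted p of 0.0058 in limma and an adjusted p of 0.999, and no gene of 10916 was called for it, with 299 at an unadjusted p under 0.05. Ifngr2, the signalling partner chain, read 56.2, 66.9, 54.6 and 67.6 on Control and 68.8, 53.7, 22.4 and 51.7 on Bmi1. Bmi1 3 was the low array, and Bmi1 1 the highest of all 8. The log2 difference was -0.46 (SE 0.32, limma adjusted p = 0.893), while the second Ifngr2 probe set differed by -0.07 and was lower in 2 of 4 pairs. Ifnar1 and Ifnar2, the type I receptor chains, differed by -0.04 and -0.01, with 95% intervals of -0.38 to 0.30 and -0.52 to 0.50. A second probe set of Ifnar2 was lower in 4 of 4 pairs, with a difference of -0.51 (adjusted p = 0.926 in limma over all probe sets).

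Of 8 transcription factors, 6 were tested, 4 higher and 2 lower by sign, and all 6 were higher with centring on all probe sets. Irf8, an interferon gamma-inducible factor best known in myeloid cells, read 9.07, 30.3, 34.0 and 74.6 on Control and 39.7, 39.6, 85.9 and 114 on Bmi1. It was higher on the Bmi1 array in 4 of 4 pairs, but the groups overlap because Control 4 exceeded Bmi1 1 and 2. The log2 difference was 0.91 (SE 0.51, limma adjusted p = 0.799), the highest among the members, and with the block the adjusted p was 0.116.

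The Irf8 difference moved with single arrays and settings. Without Control 1, the array at 9.07, it was 0.48 in place of 0.91. Its second probe set, with the lower mean, gave 1.15 and was higher in 3 of 4 pairs. Within replicates 1 and 2 the difference was 0.96, and within replicates 3 and 4 it was 0.86. With the block and centring on all probe sets, a setting chosen after seeing the data, Irf8 passed, at 1.04 and an adjusted p of 0.0268. Of the macrophage markers, Csf1r differed by -0.45 and Adgre1 by -0.57, neither called in limma (adjusted p = 0.95 and 0.864), and the summed macrophage signal overlapped between groups. Of 7 dendritic cell markers 2 were above background on all 8 arrays, Batf3 at a difference of 0.08 and Zbtb46 at 0.05, and the summed signal of the 7 was 74.7 to 127 on Control and 89.1 to 94.3 on Bmi1. The part of either cell type in the Irf8 difference was not tested.

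Irf3, the factor activated by RNA and DNA sensing, read 234, 335, 438 and 564 on Control and 286, 280, 466 and 552 on Bmi1. The groups lay on top of each other and the arrays of replicates 3 and 4 were the high ones in both. The difference was -0.05 (SE 0.28, limma adjusted p = 0.993), a sign that turned without centring. Its probe set is of a kind that may also match other transcripts. Further Irf3 probe sets differed by -0.25, -0.32 and -0.18, the last too dim to test. The first of these read 59.3, 130, 131 and 110 on Control and 73.1, 74.1, 80.5 and 146 on Bmi1. The second read 19.8, 25.6, 10.7 and 8.56 on Control and 10.6, 15.3, 11.0 and 11.1 on Bmi1. That second set showed no rise in replicates 3 and 4. Irf2, a factor that counters Irf1, read 15.9, 24.6, 11.6 and 10.6 on Control and 21.9, 18.9, 19.0 and 18.7 on Bmi1, a difference of 0.25 (SE 0.30, limma adjusted p = 0.961). The Bmi1 arrays lay within the range of the Control arrays.

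The remaining factors were close between groups. Irf1 differed by -0.10, Irf7, the amplifier of type I interferon, by 0.06, and Irf9, the DNA-binding part of the type I complex, by 0.08. Stat2, the partner of Irf9, and Ciita, the master regulator of class II genes, were not tested as genes. Stat2 read 2.48 to 26.5 on Control and 10.4 to 31.5 on Bmi1. Its 2 probe sets had opposite signs, 0.92 and -0.54. Neither passed in limma over all probe sets (adjusted p = 0.990 for the first). Ciita read 5.16 to 10.5 on Control and 2.83 to 8.09 on Bmi1, near the background of 4.09 to 9.97. It was above background on 3 of 4 Control arrays and 1 of 4 Bmi1 arrays. That count turns on small gaps, with Bmi1 2 at 6.11 against a background of 6.12.

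Both RNA sensors were tested and lower by sign, under each of the 4 scalings tried. Ddx58, which encodes the sensor RIG-I, read 136, 174, 103 and 168 on Control and 104, 156, 89.1 and 134 on Bmi1. It was lower in 4 of 4 pairs by -0.23 to -0.47, a narrow spread, while the groups as a whole overlap. The difference was -0.33 (SE 0.24, limma adjusted p = 0.907, or 0.222 with the block). Ifih1, which encodes the sensor MDA5, read 184, 111, 120 and 112 on Control and 138, 139, 88.2 and 129 on Bmi1. Control 1 stood above the rest, and 2 of 4 pairs went each way. Its difference was -0.15 (SE 0.25, limma adjusted p = 0.973).

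Among the antiviral effectors and regulators, 8 of 13 measured genes were tested, 2 higher and 6 lower by sign under each scaling. Ifi35, an interferon-induced leucine zipper protein, read 630, 820, 605 and 1084 on Control and 540, 752, 537 and 767 on Bmi1. It was lower in 4 of 4 pairs, and replicates 2 and 4 were the high ones in both groups, so the groups overlap. The difference was -0.33 (SE 0.21, limma adjusted p = 0.860, and 0.142 with the block). All 3 of its probe sets had a negative difference, from -0.32 to -0.29 over all probe sets. The dimmer sets were each lower in 3 of 4 pairs, not in all 4.

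Bst2, also called tetherin, holds budding viruses on the cell surface. It read 22.1, 57.0, 42.2 and 85.3 on Control and 62.0, 65.7, 84.1 and 90.8 on Bmi1. It was higher in 4 of 4 pairs, with pairs 1 and 3 carrying most of it and Control 4 above Bmi1 1 to 3. The log2 difference was 0.57 (SE 0.33, limma adjusted p = 0.814, and 0.265 with the block). Its promoter stretch, shown above, holds GAS and ISRE matches, as does that of Igtp, whose sign was opposite.

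The other tested effectors varied more among arrays than between groups. Rsad2, which encodes viperin, read 211, 50.1, 5.91 and 63.4 on Control and 28.0, 13.0, 21.6 and 59.5 on Bmi1. Control 1 was far above every other array and Control 3 was not above background, so its difference of -0.86 has an SE of 0.83 (limma adjusted p = 0.947). Within replicates 1 and 2 it was -2.31, and within replicates 3 and 4 it was 0.59. Ifit3, which binds viral RNA with its partner Ifit1, read 50.9, 19.2, 6.38 and 50.3 on Control and 8.25, 22.9, 11.1 and 29.5 on Bmi1, a difference of -0.60 (SE 0.58). Control 1, which had the highest fibroblast marker sum (11560), was the highest of the 8 arrays for Rsad2, Ifit3, Ifit2 and Ifih1; its part in these values was not tested.

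Ifit2, another RNA-binding effector, differed by -0.24, Usp18, which removes the Isg15 tag and dampens the receptor, by -0.19, Oas2, an oligoadenylate synthetase, by -0.19, and Oasl1, a related protein, by 0.02. Their standard errors ran from 0.27 to 0.48. The untested effectors were Ifit1, Mx1, Mx2, Oas1a and Oasl2. Ifit1 and Oas1a were above background on all 8 arrays, at 7.04 to 31.4 and 10.2 to 20.4. Mx1, an antiviral dynamin-like GTPase, was above background on 0 Control arrays and 1 Bmi1 array, and Mx2 on 1 and 0, so no fold is given for either.

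**Figure D3:**
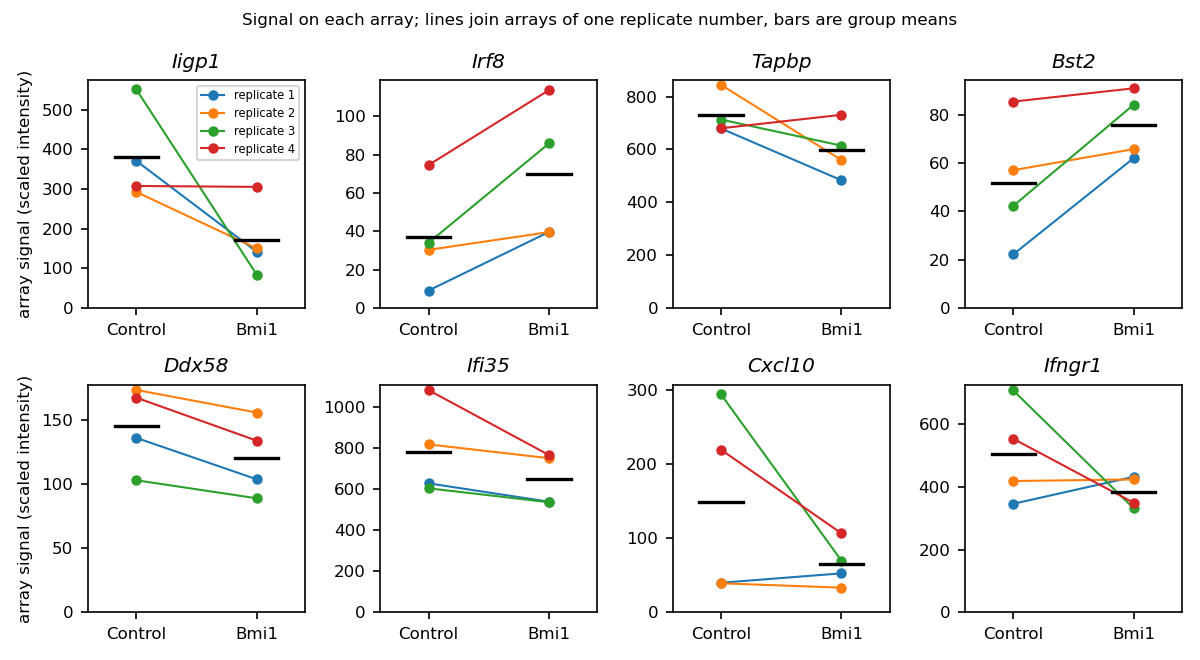
Signal (deposited intensity, linear axis from 0) of 8 members on each Control and Bmi1 array; coloured lines join arrays of one replicate number and black bars are group means (n = 4 each). Iigp1, Ddx58 and Ifi35 were lower and Irf8 and Bst2 higher on the Bmi1 array of all 4 pairs, while the Cxcl10 and Ifngr1 lines fall for replicates 3 and 4.

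The interferon-inducible GTPases gave the largest difference among the tested members. Iigp1, which attacks the vacuoles of intracellular parasites, read 371, 293, 552 and 308 on Control and 142, 150, 83.9 and 305 on Bmi1. Bmi1 1 to 3 lay below all Control arrays, while Bmi1 4 read close to its partner Control 4 and exceeded Control 2 as deposited. After centring, the groups did not overlap, though pair 4 differed by -0.04 and pair 3 by -2.75. The difference was -1.32 on the log2 scale (SE 0.36, 95% interval -2.13 to -0.50), or 2.50-fold lower. The adjusted p was 0.253 in limma, from an unadjusted 0.00496, and 0.107 with the replicate block.

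A second Iigp1 probe set read 106, 77.2, 178 and 108 on Control and 55.3, 46.8, 29.6 and 104 on Bmi1. It had the same highest and lowest array within each group as the first, though the arrays between them changed places. Its difference was -1.07, lower in 4 of 4 pairs, again with a small gap in pair 4. Both probe sets measure the same RNA samples, so they are not independent replicates. Within replicates 1 and 2 the difference of the first was -1.24 and within replicates 3 and 4 it was -1.39. Leaving out single arrays moved it between -1.64 (without Bmi1 4) and -1.02 (without Bmi1 3), with adjusted p from 0.131 to 0.539. With the block and centring on all probe sets, the setting chosen after seeing the data, it passed at -1.19 and an adjusted p of 0.0495.

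The other GTPases were lower by sign under each scaling, with smaller sizes. Igtp, also called Irgm3, read 85.4, 100.2, 53.8 and 126 on Control and 67.3, 83.8, 49.7 and 107 on Bmi1. Every Bmi1 array was below its partner by -0.19 to -0.42, yet the groups overlap widely because the experiments differ. The difference was -0.30 (SE 0.31, limma adjusted p = 0.947). Irgm1, a regulator of the other members of the family, read 181, 153, 165 and 212 on Control and 141, 192, 140 and 181 on Bmi1, lower in 3 of 4 pairs, with a difference of -0.20 (SE 0.18, limma adjusted p = 0.947). The guanylate-binding proteins Gbp2 and Gbp3 were not tested, at 3.51 to 45 and 2.54 to 25.1 on the 8 arrays.

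Of the chemokine pair that draws T cells through Cxcr3, Cxcl10 was tested and Cxcl9 was not. Cxcl10 read 40, 39.3, 294 and 220 on Control and 52.7, 33.4, 69.8 and 107 on Bmi1. Control 3 and 4 were the high arrays, Bmi1 4 and 3 followed, and the arrays of replicates 1 and 2 were the low ones in both groups. The difference was -0.79 (SE 0.64, limma adjusted p = 0.925, or 0.289 with the block). Within replicates 1 and 2 it was -0.01, and within replicates 3 and 4 it was -1.57. The interaction had an unadjusted p of 0.0086 and an adjusted p of 0.999 in limma. Cxcl9 was above background on 2 of 4 arrays in each group.

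In antigen presentation 5 of 7 genes were tested, 3 higher and 2 lower by sign, or 4 and 1 with centring on all probe sets. Tapbp, or tapasin, which bridges the transporter and class I, read 679, 845, 713 and 680 on Control and 483, 560, 614 and 731 on Bmi1. Bmi1 1 to 3 were below all Control arrays, and Bmi1 4 was above 3 of them. The difference was -0.37 (SE 0.15, limma adjusted p = 0.582, and 0.218 with the block). It was -0.63 within replicates 1 and 2 and -0.11 within replicates 3 and 4, and the second Tapbp probe set differed by 0.00, from 17.7 to 46.3 on Control and 26.4 to 52.1 on Bmi1.

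Tap1, a chain of the peptide transporter, read 19.8, 21.1, 20.5 and 35.9 on Control and 21.3, 34.4, 42.3 and 60.9 on Bmi1. Bmi1 2 to 4 were above Control 1 to 3, and pair 1 was close, with Bmi1 1 above Control 1 as deposited and a centred difference of -0.01. The log2 difference was 0.51 (SE 0.31, limma adjusted p = 0.830, and 0.303 with the block). Psmb9, the immunoproteasome subunit that shares the interval shown above with Tap1, read 23.1, 12.1, 19.6 and 17.3 on Control and 15.4, 24.3, 26.6 and 28.5 on Bmi1. Psmb9 was lower in pair 1 and higher in pairs 2 to 4, with a difference of 0.26 (SE 0.28, limma adjusted p = 0.952). Psmb8, a further immunoproteasome subunit, read 15.2, 23.3, 10.0 and 36.3 on Control and 13.2, 25.9, 42.2 and 58.0 on Bmi1, with a difference of 0.51 (SE 0.45, limma adjusted p = 0.943). The difference was -0.10 within replicates 1 and 2 and 1.12 within replicates 3 and 4.

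B2m, the light chain of class I, read 2385, 2314, 2165 and 2160 on Control and 2181, 2391, 1940 and 2257 on Bmi1. The difference was -0.12 (SE 0.12, limma adjusted p = 0.947), with a 95% interval of -0.38 to 0.15, and its sign turned when centred on all probe sets. The second B2m probe set differed by -0.21 and was lower in 4 of 4 pairs after centring (limma adjusted p over all probe sets 0.383 with the block, and not under the threshold without it). Tap2, the other transporter chain, and Cd74, the class II invariant chain, were not tested. Tap2 was above background on 2 Control and 3 Bmi1 arrays, and Cd74 read 10.7 to 15.4 on Control and 8.63 to 18.9 on Bmi1.

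Variation of the members among the 4 experiments was read in the same way. The replicate number was called in limma for 5 of 29 members (17.2%), namely Irf3, Irf8, Usp18, Ifi35 and Igtp, against 18.9% of all genes. The contrast of replicates 3 and 4 with 1 and 2 was called for 3 of 29 (10.3%), against 24.5%, and the 3 were higher in replicates 3 and 4. These were Irf3 by 0.73 on the probe set that stood for it (limma adjusted p = 0.0099), Irf8 by 1.21 (0.0284) and Cxcl10 by 1.68 (0.0095). Each side of the split holds both groups equally, so the split does not follow the group labels. The BioC hybridisation control also differed along it, at 198 to 274 on replicates 1 and 2 and 97.0 to 119 on replicates 3 and 4. The source of the split was not tested. In signal as deposited, Bmi1 4 was the highest of the 8 arrays for 10 of 29 members and Bmi1 3 the lowest for 10. Control 4 was the highest for 6 and Control 1 the lowest for 8, so extremes fell in both groups.

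**Figure D4:**
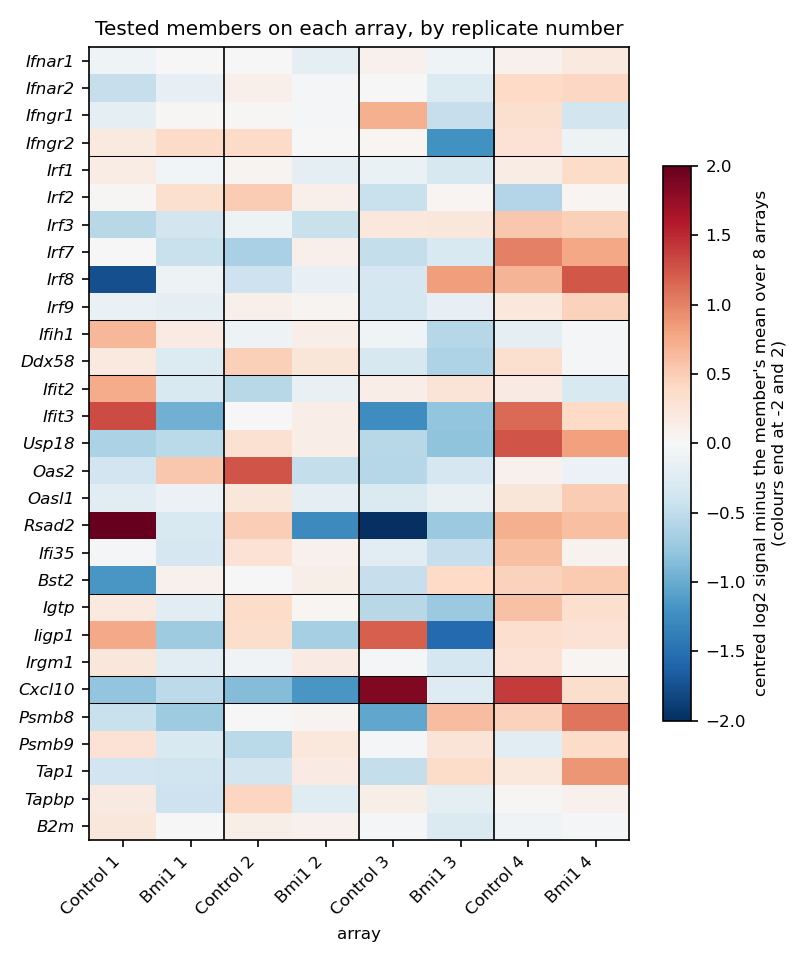
Centred log2 signal minus the member's mean over the 8 arrays (colour, from -2 to 2) for the 29 tested members in rows, ordered by role, and the 8 arrays in columns, ordered by replicate number. Neighbouring columns of one replicate number share colours in many rows, and Irf3, Irf8 and Cxcl10 are higher in replicates 3 and 4.

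Members with an ISRE match and members without one were also set side by side, as a description. Of 10 tested members with an ISRE core match, 8 were lower by sign, with a median difference of -0.25. Of 16 tested members with a window and no match, 9 were lower, with a median of -0.03. Centred on all probe sets, these were 7 of 10 with a median of -0.12 and 5 of 16 with a median of 0.11, beside 0.11 for all genes. With centring on the tested genes, Bst2 and Irf2 were the members with a match that were higher.

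Other genes of the pathway, from a list beside the members, were read from the same fits. Of 90 further names, 76 were measured and 51 tested, and 0 were called in either fit. In limma, 3 of 51 had an unadjusted p under 0.05, where the share of all tested genes was 7.81%. With the block 8 of 51 did, where that share was 18%. Of the 51, 17 were higher and 34 lower by sign, with a median of -0.07. Centred on all probe sets, 29 were higher and 22 lower. By part of the pathway and with centring on the tested genes, signalling and feedback genes had 4 higher and 4 lower, sensors 2 higher and 6 lower, antiviral effectors 6 higher and 14 lower, GTPases 0 higher and 3 lower, and antigen presentation 5 higher and 7 lower. The 5 interferon genes measured, Ifnb1, Ifng, Ifna1, Ifna2 and Ifna4, were all too dim to test. Ifng, Ifna2 and Ifna4 were below background on all 8 arrays. The class I heavy chains H2-K1 and H2-D1, whose sequences are close enough for probes to be shared, differed by 0.03 and 0.08.

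In limma without the block, the genes with the smallest p among these were Herc6, Cgas and Sting1. Herc6, the ligase that attaches Isg15, read 37.2, 27.4, 14.9 and 21.8 on Control and 13.7, 10.8, 10.0 and 14.3 on Bmi1, a difference of -0.89 (SE 0.32, limma adjusted p = 0.479, and 0.151 with the block). All Bmi1 arrays were below all Control arrays, as for 2.91% of all genes. Cgas, the DNA sensor, read 49.5, 33.1, 22.0 and 39.6 on Control and 81.0, 43.8, 63.1 and 62.8 on Bmi1, a difference of 0.69 (SE 0.29, limma adjusted p = 0.610). Sting1, the adaptor that Cgas signals through, read 47.7, 34.8, 98.5 and 73.5 on Control and 89.4, 80.4, 115 and 136 on Bmi1. Its difference was 0.69 (SE 0.30, limma adjusted p = 0.611, and 0.0972 with the block). Cgas and Sting1 were higher in 4 of 4 pairs, as 11.4% of all genes were, and in both the groups overlap on single arrays. With the block, the smallest p was that of Samd9l, an antiviral effector, which read 114, 51.3, 48.8 and 30.6 on Control and 41.4, 44.8, 13.8 and 17.0 on Bmi1. It was lower in 4 of 4 pairs, as 15.8% of all genes were, with overlapping groups. Its difference of -1.04 was the largest of the 51 (SE 0.48, limma adjusted p = 0.684, and 0.0889 with the block). Xaf1 differed by -0.91 (SE 0.46) and Samhd1, which depletes nucleotides, by 0.76 (SE 0.84). Samd9l, Xaf1 and Samhd1 were chosen after their values were seen. In bulk RNA such as this, more cells of a type and more RNA per cell cannot be told apart.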

How the data were processed

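The authors deposited linear probe set intensities, 45101 per array; on every array their mean, with 2% trimmed at each end, was 100.0, so each array carries a global scaling. The sources used here do not name the software. Names came from the platform annotation: 34945 probe sets had 1 symbol, 932 several, 9160 were unnamed and 64 were controls. The members and lists were chosen with earlier results of these data known.

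Signals were taken as log2(value + 3.78), which understates folds of dim genes. Genes from the 40th percentile of mean log2 level upward were kept (10916), and arrays were centred on their median. Groups were compared with limma 3.58.1 (R 4.3.3, intensity trend, two-sided, Benjamini-Hochberg over all tested genes, threshold 0.05), checked on simulated data. Whether separate animals gave the 4 experiments is not stated, so p-values measure the spread between these samples. The number of arrays limits the precision. Background was the 95th percentile of 27 Bacillus control probe sets (4.09 to 9.97).

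Same-numbered arrays correlated at 0.53, 0.49, 0.50 and 0.68 in their deviations from group means, each best with its own number, so the numbers were taken to pair the arrays; the main model had no block. Values on every array were given by rule for members called or not overlapping and, per role, for the 2 with the smallest p and the one of highest mean signal; among other pathway genes, for those called or the 3 of smallest p. The other members shown (Psmb8, Psmb9, Rsad2, Ifit3 and Igtp, and the named second or further probe sets) were chosen after their values were seen. Alternatives covered the block, pseudocount, centring, filter, probe sets, weights and single arrays.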

Additional observations from a re-analysis of the deposited data

Results flagged for a closer look

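Over the 41 measured members and both groups, 82 sets of 4 arrays were looked at. In 6 of them the gap between an extreme array and its nearest neighbour took a larger share of the set's range than Dixon's 95% critical value, where chance gives about 4. The high arrays were Ifih1 on Control 1 (share 0.883, signal 184), Tap1 on Control 4 (0.918, signal 35.9), Irf2 on Bmi1 1 (0.886, signal 21.9), Mx1 on Bmi1 2 (0.881, signal 8.23) and Oasl1 on Bmi1 4 (0.879, signal 35.4). The low array was Oasl2 on Control 3 (0.957, signal 0.524). Mx1 and Oasl2 were not tested between groups.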

How the results depend on the processing

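No member was called under any listed alternative, the replicate block (0 of 29) and the omission of single arrays included, and no other pathway gene was called in any setting run. With the replicate block and centring on all probe sets together, added after seeing the data, 2 members were called. The median member difference ran from -0.20 to -0.02 and was below 0 in every setting run.

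The count over all genes, 18, moved with the setting: 362 with the replicate block, 191 with the split of replicates 1 and 2 from 3 and 4 as a term, 30 with a pseudocount equal to the median, 28 without centring, 7 after quantile normalisation, 0 with a 60th percentile filter and 37 with array weights. Joined to the block, it was 407 without centring, 474 with centring on all probe sets, 332 after quantile normalisation and 273 without the level filter. Leaving out 1 array gave 0 to 20: 0 without Control 2, Control 3, Bmi1 2 or Bmi1 3, 1 without Control 1, 2 without Bmi1 4, 3 without Bmi1 1 and 20 without Control 4.

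Some signs turned. Irf3 was 0.0235 without centring, 0.0832 centred on all probe sets and 0.012 after quantile normalisation, with or without the block, and -0.243 to 0.124 on leaving out 1 array. B2m was 0.0157 and 0.003 in the latter 2 scalings, with or without the block. Ifih1 was 0.0459 with array weights and -0.243 to 0.0417 on leaving out 1 array. Within replicates 1 and 2, Ifngr1 was 0.0793, Irf2 -0.0563 and Psmb8 -0.10, against 0.51 over all arrays. Within replicates 3 and 4, Rsad2 was 0.59, against -0.86. In all, 6 of 29 members turned within replicates 1 and 2 and 4 within replicates 3 and 4. The cause was not tested.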
